A study of Mus musculus with 17 samples.

Results

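The genes described here were 10 genes that mark the mesothelium, and they were followed in pWAT, the perigonadal white adipose tissue, a visceral fat pad that lies beside the gonads. They were listed by name, with no measured value in the rule, matched to the files by Ensembl identifier, and made up 10 of 55401 genes, of which 55141 had a symbol. RNA-seq of whole pWAT was available for 17 mice, with 1 library per mouse. The groups were 5 WT females, 5 U9-KO females, 3 WT males and 4 U9-KO males, all C57BL/6J on a standard diet, and the methods give 16 weeks as the age at collection while the screening schedule ran to 19 weeks. U9-KO mice were homozygous for a deletion of all exons of the long non-coding RNA *U90926* in every cell, and WT mice were their littermates from crosses of heterozygous parents. The comparison of genotypes asked whether loss of *U90926* altered the mesothelial genes, and the comparison with ovary transcripts asked whether these genes followed other tissue of the gonadal region in the female libraries.

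The mesothelium is the single layer of flat cells that covers the organs and lines the body cavities, and it also covers the surface of visceral fat pads. Mesothelial cells arise from mesoderm but carry simple epithelial keratins, a mucous surface and proteins first described in the bladder lining. The ovary and the oviduct lie next to the female pad, and the ovary has a surface epithelium related to mesothelium, so several of these genes are also transcribed in reproductive tissue. In bulk tissue, fewer cells of a type and less RNA per cell cannot be told apart.

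The values are normalized counts, that is, read counts scaled by the authors with 1 size factor per library and then rounded. Their sum per library was 20.2M to 28.6M, and the spacing of low values gave an estimated 19.7M to 27.6M counted reads. *U90926* itself was at 0 in 15 mice and at 1 normalized count in WT female 3 and WT male 2, so the counts do not check the genotype labels. The female libraries also held ovary transcripts, followed here by 17 genes of luteal, thecal, granulosa and egg cells, and oviduct transcripts, followed by 6 genes. The luteal and thecal transcripts summed to 3512 to 136435 in females and 220 to 443 in males, and WT female 4 and U9-KO female 1 stood apart at the top. Results that rest on these 2 libraries are given with and without them. The 7 epididymis genes, listed for the male pad, summed to 1 to 6 in males and to 10 to 717 in females, where *Cst8* reached 710 and *Crisp1* 66.

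Members of 2 pairs came up again and again in the results, and the sequences before their start sites are shown for that reason. *Lrrn4* and *Upk3b* rose and fell together from mouse to mouse, as other pairs of members also did. *Krt8* and *Krt18* had the largest differences between the sexes. The RefSeq promoter table for GRCm38.p6 held a promoter for 6 of the 10 members. Each sequence runs 5′ to 3′ from 250 bases before to 50 bases after the annotated start, on the strand of the gene. Both strands were searched for TATAAA (bound by the TATA-binding protein), GGGCGG (bound by SP1), GGAATG (bound by TEAD factors), TGANTCA (bound by AP-1) and GCGTGGG (bound by WT1 and EGR factors), and capitals mark the matches.
Lrrn4: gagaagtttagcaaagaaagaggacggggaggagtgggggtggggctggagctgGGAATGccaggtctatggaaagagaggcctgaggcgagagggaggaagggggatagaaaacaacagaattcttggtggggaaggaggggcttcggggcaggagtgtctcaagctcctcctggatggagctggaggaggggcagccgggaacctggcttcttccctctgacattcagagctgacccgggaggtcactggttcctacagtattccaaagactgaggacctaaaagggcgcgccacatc
Upk3b: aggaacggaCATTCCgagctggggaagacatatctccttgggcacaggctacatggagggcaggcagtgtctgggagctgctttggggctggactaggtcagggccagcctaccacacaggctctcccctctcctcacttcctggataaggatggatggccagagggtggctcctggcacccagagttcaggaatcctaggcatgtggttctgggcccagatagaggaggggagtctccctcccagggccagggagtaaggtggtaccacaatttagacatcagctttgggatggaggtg
Krt8: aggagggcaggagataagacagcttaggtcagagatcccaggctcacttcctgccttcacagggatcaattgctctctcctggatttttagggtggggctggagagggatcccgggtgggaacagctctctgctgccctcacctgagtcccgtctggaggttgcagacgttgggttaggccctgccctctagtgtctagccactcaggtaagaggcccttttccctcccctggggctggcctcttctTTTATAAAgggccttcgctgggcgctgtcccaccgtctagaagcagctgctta
Krt18: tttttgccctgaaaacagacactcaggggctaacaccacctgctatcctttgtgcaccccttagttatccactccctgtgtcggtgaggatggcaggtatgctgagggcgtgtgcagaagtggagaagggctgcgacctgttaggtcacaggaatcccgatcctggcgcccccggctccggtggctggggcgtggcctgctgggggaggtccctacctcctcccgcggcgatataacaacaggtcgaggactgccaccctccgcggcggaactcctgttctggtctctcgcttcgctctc
The *Lrrn4* window is chr2:132880813-132881112, minus strand, with GGAATG at position -196, where -1 is the base before the start. The *Upk3b* window is chr5:136038246-136038545, plus strand, with the same letters on the other strand at -241. A promoter of *Gpm6a*, not shown, also held GGAATG, at -125. The *Krt8* window, chr15:102004293-102004592 on the minus strand, held overlapping TATAAA matches on both strands at -3 and -1. The *Krt18* window, chr15:102027966-102028265 on the plus strand, held none of the 5 motifs. Among all 32851 promoters of this length, 14.7% held GGAATG, 13.6% TATAAA, 35.7% GGGCGG, 7.81% TGANTCA and 5.04% GCGTGGG. A match describes the letters and shows no binding.

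All 10 genes are protein coding and were detected in each of the 17 mice. Transcripts of only 2 members matched another gene over at least 150 bases at 90% identity or more. *Krt8* matched the processed pseudogene *Krt8-ps*, whose highest count was 6, and *Krt18* matched *Gm5200*, which had no counts. *Krt8* and *Krt18* lie side by side on chromosome 15 with 23697 bases between them. *Krt8*, *Bnc1* and *Gpm6a* overlap other annotated genes, and Union counting leaves out reads that fall on more than 1 gene. The strand setting of the counting is not given in the sources used here.

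Summed over the 10 members, females had 8897 (U9-KO female 3), a median of 13443 and at most 18279 (U9-KO female 4). Males had 4682 (U9-KO male 4), a median of 9115 and at most 10405 (WT male 2). These sums were 0.0311% to 0.0844% of the library in females and 0.0196% to 0.0472% in males. Single mice tended to be high or low for the whole set. U9-KO female 4 had the highest female value of 8 members, and U9-KO male 4 had the lowest male value of 8 members.

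**Figure D1:**
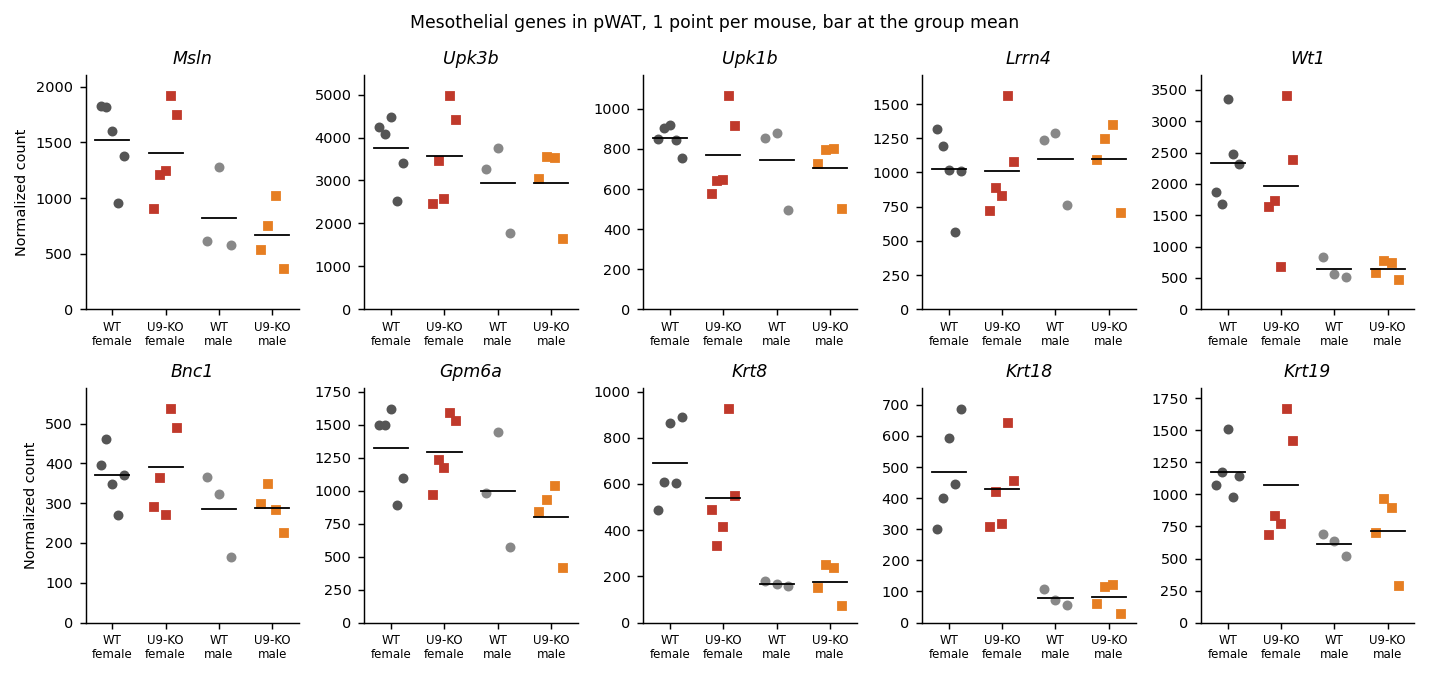
Normalized counts of the 10 mesothelial genes in each mouse, by group. The points of the sexes separate for *Krt8* and *Krt18*, with the lowest female at 333 and 301 and the highest male at 249 and 122, and they overlap for the other 8 genes.

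Levels of different genes were compared per kilobase of annotated exon, with all exons of a gene joined. This length exceeded the longest coding transcript for *Wt1* (6195 against 3090 bases), *Msln* (3064 against 2165), *Krt19* (1855 against 1576) and *Upk1b* (2089 against 1894). The 2 lengths were equal for the other members. The order of the genes depends on this choice, and no other length was used. In females *Upk3b* was the most abundant, with 1036 ± 259 normalized counts per kilobase (SD, n = 10), above *Krt19* in 10 of 10 mice. *Krt19* followed with 607 ± 176, *Msln* with 477 ± 122 and *Gpm6a* with 407 ± 84.0. Each step from *Upk3b* to *Gpm6a* was consistent across mice (two-sided exact permutation tests on paired values, p = 0.00195, 0.00586 and 0.00391, adjusted over 18 such steps 0.0176, 0.0264 and 0.0234). From *Gpm6a* down through *Upk1b* (388 ± 73.8), *Wt1* (347 ± 133), *Krt18* (318 ± 97.6), *Krt8* (315 ± 106) and *Lrrn4* (274 ± 78.8) per kilobase, neighbours were not distinguishable (exact p 0.141 to 0.875). *Bnc1* was the lowest at 81.7 ± 19.8 per kilobase. In both sexes neighbours were set by the same values that were tested, so these p-values describe the steps and test no order set beforehand.

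In males *Upk3b* also led, with 831 ± 246 normalized counts per kilobase (SD, n = 7). *Krt19* (361 ± 122) and *Upk1b* (345 ± 76.8) per kilobase were not distinguishable (exact p = 0.938). *Lrrn4* followed at 295 ± 70.0 per kilobase, in a higher place than in females, and *Upk1b* was above it in 7 of 7 mice (exact p = 0.0156, adjusted 0.0402). *Gpm6a* (276 ± 104) and *Msln* (239 ± 103) per kilobase came next, and the step from *Msln* to *Wt1* (103 ± 22.9) held in 7 of 7 mice (exact p = 0.0156, adjusted 0.0402). The last places per kilobase were taken by *Krt8* (88.4 ± 30.3), *Bnc1* (61.7 ± 15.3) and *Krt18* (56.2 ± 24.2). Neighbours from *Wt1* downward were not distinguishable (exact p 0.0625 to 0.391).

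The surface proteins came first in role. *Msln* encodes mesothelin, a glycoprotein anchored in the mesothelial cell membrane that binds the mucin encoded by *Muc16*. Its normalized counts were 1829, 1815, 1607, 960 and 1382 in WT females and 898, 1210, 1243, 1919 and 1749 in U9-KO females. In males they were 610, 1275 and 581 in WT and 537, 745, 1018 and 358 in U9-KO mice. The genotypes overlapped in both sexes, and WT female 4 and U9-KO female 1 had the lowest female values.

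*Upk3b* encodes a uroplakin, a membrane protein family named for the bladder lining. It had normalized counts of 4253, 4085, 4472, 2523 and 3404 in WT females and 2448, 3451, 2562, 4972 and 4400 in U9-KO females. In males it had 3259, 3754 and 1781 in WT and 3040, 3547, 3523 and 1631 in U9-KO mice. The ranges of the genotypes and of the sexes overlapped, with the same females lowest as for *Msln*. *Upk1b*, a tetraspanin that pairs with other uroplakins, had the lowest coefficient of variation of the members in females, from 576 to 1065 normalized counts with a median of 847.

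*Lrrn4*, a leucine-rich repeat membrane protein, had 1319, 1196, 1016, 564 and 1014 normalized counts in WT females and 715, 886, 828, 1560 and 1080 in U9-KO females. In males it had 1236, 1287 and 762 in WT and 1093, 1247, 1345 and 705 in U9-KO mice. It was the only member whose male mean (1096 ± 260, SD, n = 7) was above its female mean (1018 ± 293, n = 10), and the sexes overlapped. *Gpm6a*, a membrane glycoprotein best known from neurons, ran from 891 (WT female 4) to 1619 in females with a median of 1366.5, and from 415 to 1444 in males with a median of 930.

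The transcription factors were *Wt1*, which is needed for the formation of the gonads and the mesothelium, and *Bnc1*, a zinc finger protein of epithelia and germ cells. *Wt1* had normalized counts of 1870, 1683, 3350, 2479 and 2315 in WT females and 1624, 1727, 682, 3405 and 2383 in U9-KO females. In males it had 832, 568 and 522 in WT and 585, 775, 745 and 461 in U9-KO mice. It varied most among females, with a coefficient of variation of 38.3%, and U9-KO female 3 alone fell within the male range. *Bnc1* was low in all mice, from 269 to 536 in females and 164 to 366 in males.

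The keratins *Krt8*, *Krt18* and *Krt19* form the intermediate filaments of simple epithelia and mesothelium, and *Krt8* and *Krt18* proteins pair with each other. *Krt8* had 489, 610, 864, 604 and 888 normalized counts in WT females and 487, 333, 413, 924 and 550 in U9-KO females. In males it had 179, 169 and 158 in WT and 150, 249, 236 and 70 in U9-KO mice. Every female was above every male, while the genotypes overlapped.

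*Krt18* had 301, 400, 593, 444 and 686 normalized counts in WT females and 306, 419, 318, 643 and 454 in U9-KO females. In males it had 107, 74 and 57 in WT and 61, 115, 122 and 29 in U9-KO mice. Again the sexes were apart and the genotypes were not. *Krt19* ran from 687 to 1666 in females and 289 to 961 in males, with overlap.

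Further mesothelial genes were looked at to check the name of the set. Of 10 other mesothelial genes, 9 had a normalized count of at least 10 in all 17 mice, and the sum of all 10 ran from 4257 to 7590 in females and 2617 to 5160 in males. *Calb2*, calretinin, was the exception with at most 12 in females and 2 in males.

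No member passed the test between U9-KO and WT mice in either sex. Differences were tested with limma on log2(normalized count + 1), on which scale the change of low genes is understated, with Benjamini-Hochberg adjustment over all genes tested and a threshold of 0.05. In females 0 of 10 members passed, as did 0.0% of the 24825 genes tested. The share at an unadjusted p under 0.05 was 2.23% of all genes and 0 of 10 members. In males 0 of 10 members passed against 0.0% of 21930 genes, and 0 of 10 had an unadjusted p under 0.05, against 7.6% of all genes.

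In females *Krt8* had the lowest estimate, a log2 difference between U9-KO and WT of -0.40 (SE 0.26, 95% interval -0.97 to 0.16, limma adjusted p = 1). *Wt1* had -0.39 (SE 0.36, interval -1.18 to 0.39). *Lrrn4* had -0.01 (SE 0.25) and *Gpm6a* -0.02 (SE 0.19). The estimates were below 0 for 9 of 10 members, with a median of -0.15 against 0.01 over all genes with a mean of at least 10. Since members vary together among mice, the shared sign is not a count of independent genes.

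In males *Msln* had a log2 difference of -0.31 (SE 0.35, 95% interval -1.10 to 0.47) and *Gpm6a* of -0.29 (SE 0.34, interval -1.06 to 0.48). *Lrrn4* and *Wt1* were at 0.00 (SE 0.23 and 0.20). Of the 10 estimates 5 were below 0, with a median of -0.03 and limma adjusted p of 0.837 to 1. The widest interval was that of *Krt18*, from -1.12 to 0.89, so with 3 and 4 mice changes within these bounds are not excluded.

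Exact permutation tests of each member (two-sided) gave p from 0.246 (*Krt8*) to 0.984 in females, where the smallest possible is 0.00794, and from 0.457 (*Gpm6a*) to 1 in males, where the design cannot go below 0.0571. The groups did not overlap for 0 of 10 members in either sex, against 0.238% of genes in females and 7.6% in males. The genotype effect in males minus that in females ran from -0.28 (*Gpm6a*, SE 0.41) to 0.39 (*Wt1*, SE 0.49) on the log2 scale. None passed the test, as with 0.0% of 26289 genes, and 0 of 10 had an unadjusted p under 0.05 against 3.46% of genes.

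**Figure D2:**
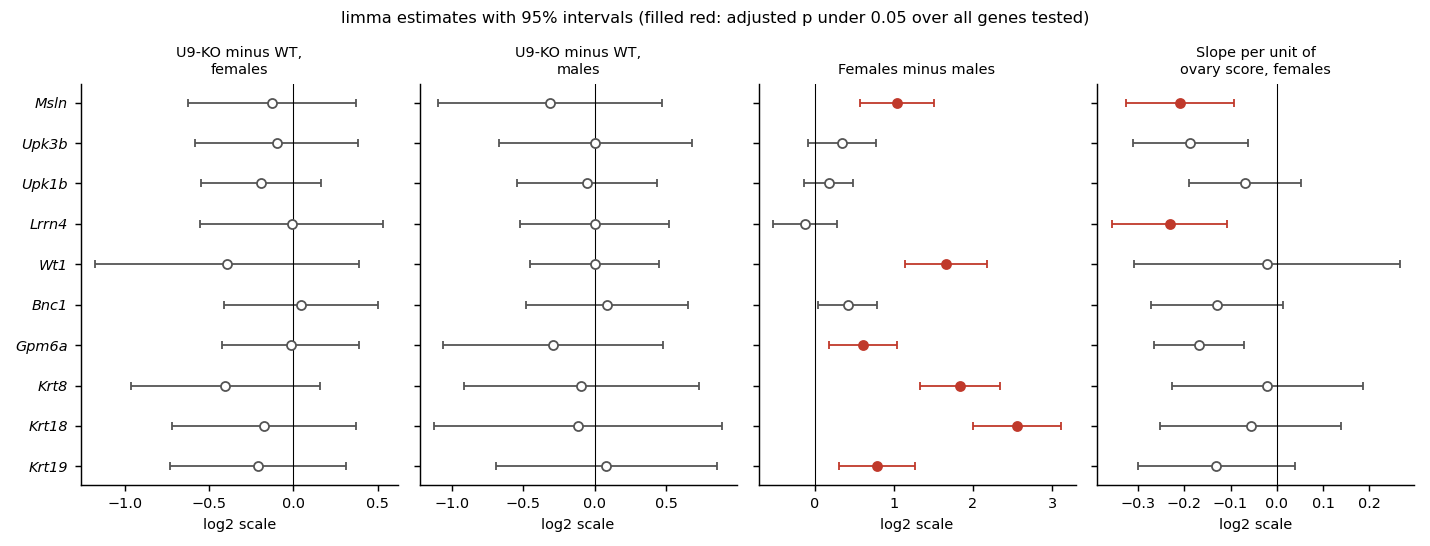
Log2 differences of the 10 members with 95% confidence intervals from limma, for U9-KO versus WT in females, U9-KO versus WT in males and females versus males. The genotype intervals all include 0, and the intervals of females versus males lie above 0 for *Krt18*, *Krt8*, *Wt1*, *Msln*, *Krt19*, *Gpm6a* and *Bnc1*.

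The sexes differed in the members unequally. Of the 10 members 6 were higher in females and 0 lower, while 28.6% of 26289 genes were higher and 10.7% lower in females. The scaling by size factors seems to have been done within each sex, and on a common scale for all 17 libraries the split over all genes was 5813 higher and 4315 lower in place of 7511 and 2811, and 5 members were called. The median gene with a mean of at least 10 was 0.13 higher in females on the log2 scale as deposited and 0.01 on the common scale. Sex is not the treatment of the study, and male and female pads border different organs.

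*Krt18* was 5.88-fold higher in females (log2 difference 2.55, SE 0.27, limma adjusted p = 9.79e-07) and *Krt8* 3.57-fold (1.84, SE 0.24, adjusted p = 1.11e-05). *Wt1* was 3.16-fold higher (1.66, SE 0.25, adjusted p = 4.45e-05) and *Msln* 2.05-fold (1.04, SE 0.22, adjusted p = 0.00133). These 4 kept their call on the common scale, at 2.44, 1.72, 1.54 and 0.92. *Krt19* had a log2 difference of 0.79 (SE 0.23, limma adjusted p = 0.0104) and 0.67 on the common scale.

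*Gpm6a* was called at 0.61 (SE 0.20, limma adjusted p = 0.0255) but not on the common scale (0.49, adjusted p = 0.0699), nor without WT male 3 (0.43) or U9-KO male 4 (0.46). *Bnc1* (0.42, limma adjusted p = 0.0717), *Upk3b* (0.34, 0.198), *Upk1b* (0.18, 0.369) and *Lrrn4* (-0.12, 0.655) were not called. *Bnc1* passed when any of WT female 4, U9-KO female 3 or WT male 1 was left out. All 10 females were above all 7 males for 2 members, *Krt8* and *Krt18*, as for 9.12% of genes. Among the 10 other mesothelial genes 4 were called higher and 0 lower, namely *Dmkn* (2.49), *Aldh1a2* (1.20), *Muc16* (0.92) and *Rspo1* (0.56), on the log2 scale.

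Ratios within a mouse do not depend on the size factors, so each member was set against *Upk3b* of the same library, a comparison chosen after seeing the data. *Krt18* was 12.5% of *Upk3b* at the median in females (7.08% to 20.2%) and 3.20% in males (1.78% to 3.46%), a 4.72-fold higher ratio in females. For *Krt8* the medians were 17.4% and 5.49%, 2.85-fold higher, and for *Msln* 39.2% (35.1% to 48.5%) and 21.9% (17.7% to 34.0%), 1.65-fold higher. In these 3 genes no female overlapped a male.

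*Lrrn4* went the other way, at 29.2% of *Upk3b* in females (22.4% to 32.3%) and 37.9% in males (34.3% to 43.2%), so that every female was below every male. For all 4 the two-sided exact permutation p was 0.000103, the smallest this design can give, and 0.000231 adjusted over the 9 ratios. *Wt1* (2.49-fold, exact p = 0.000309), *Krt19* (1.36-fold, exact p = 0.0036) and *Gpm6a* (1.22-fold, exact p = 0.00463) were higher in females relative to *Upk3b*, with overlap. *Upk1b* and *Bnc1* held much the same ratio, 0.894 and 1.05 of that in males (exact p = 0.146 and 0.503). A ratio shows unequal change and does not say which of its genes changed. Ratios to *Upk3b* were not computed for all genes, so no background share is given for these splits. On normalized counts, 9.12% of genes had all females above all males.

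**Figure D3:**
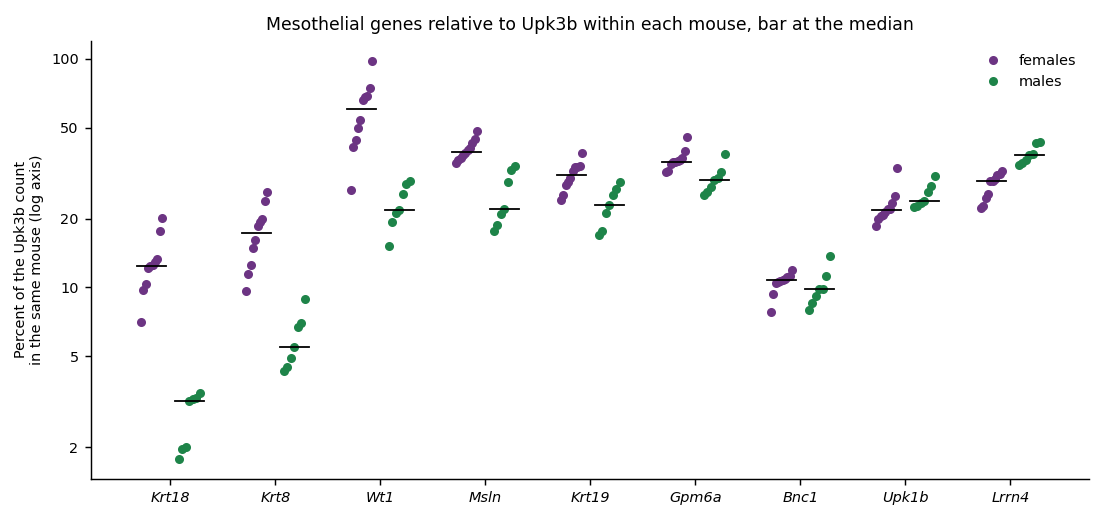
Each member as a percent of *Upk3b* in the same mouse, on a log axis, for females and males. The points of *Krt18*, *Krt8* and *Msln* lie higher in all females than in all males, those of *Lrrn4* lie lower, and those of *Upk1b* and *Bnc1* overlap.

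Other epithelial transcripts also differed between the sexes. All 6 simple epithelial genes of a list without members were called higher in females, as were 28.6% of all genes. Their sums were 909 to 2341 (median 1305.5) against 189 to 368 in males (median 276). A large share of these sums was *Krt7*, a keratin also found in mesothelium, with medians of 796 and 252 and an r with the mean of the members of 0.80 in females and 0.90 in males. The other 5 genes summed to 228 to 1318 in females (median 563) and 13 to 30 in males (median 16). *Epcam*, an adhesion molecule of epithelia that mesothelium lacks or holds at low level, had 119 to 613 normalized counts in females and 0 to 9 in males. All 6 oviduct genes were higher in females too, with sums of 164 to 8161 against 21 to 35, and *Ovgp1*, a secreted oviduct glycoprotein, reached 7684 in WT female 3 and 1256 in U9-KO female 4. The 8 adipocyte genes all had lower estimates in females, 6 of them called, against 10.7% of all genes called lower. Their sums were 265696 to 705635 in females against 548284 to 823205 in males. The part of these tissues in the sex differences was not tested.

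Within females, *Krt18* followed the simple epithelium score, the mean log2 value of those 6 genes, which ran from 5.77 (WT female 1) to 7.96 (WT female 5). Pearson's r was 0.861 over 10 females (permutation p = 0.00116, adjusted 0.0232 over the 60 relations of 6 scores with 10 members) and Spearman's rho was 0.782 (permutation p = 0.0104). Without the 2 mice farthest from the median score r was 0.764. For *Krt8* r was 0.701 (permutation p = 0.0229, adjusted 0.114), rho was 0.60 (permutation p = 0.0721) and r without those 2 mice was 0.705. *Wt1* had r = 0.566 (permutation p = 0.0891, adjusted 0.255), and 0.850 without the 2 farthest mice, and *Krt19* had 0.341 (permutation p = 0.335) and 0.535 without them. The other 6 members had r between -0.194 (*Gpm6a*) and 0.164 (*Upk1b*), with permutation p of 0.594 to 0.975. Without the 2 farthest mice their r ran from 0.048 (*Lrrn4*) to 0.507 (*Upk1b*), with *Upk3b* at 0.349.

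In limma with genotype as a covariate, the slope of *Krt18* on this score was 0.60 (SE 0.13) log2 units per unit of score, with an adjusted p of 0.287, and that of *Krt8* was 0.49 (SE 0.18, limma adjusted p = 0.307). Neither passed, and 0.00806% of genes did. At an unadjusted p under 0.05 stood 2 of 10 members, these keratins, and 13.3% of genes. On the oviduct score *Krt18* had a slope of 0.42 (SE 0.10, limma adjusted p = 0.140). All 10 slopes on it were positive, in members that vary together among mice. Of these, 0 of 10 passed against 0.0% of genes, and 4 of 10 had an unadjusted p under 0.05 against 16.1%. Both of these fits were added after seeing the data.

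**Figure D4:**
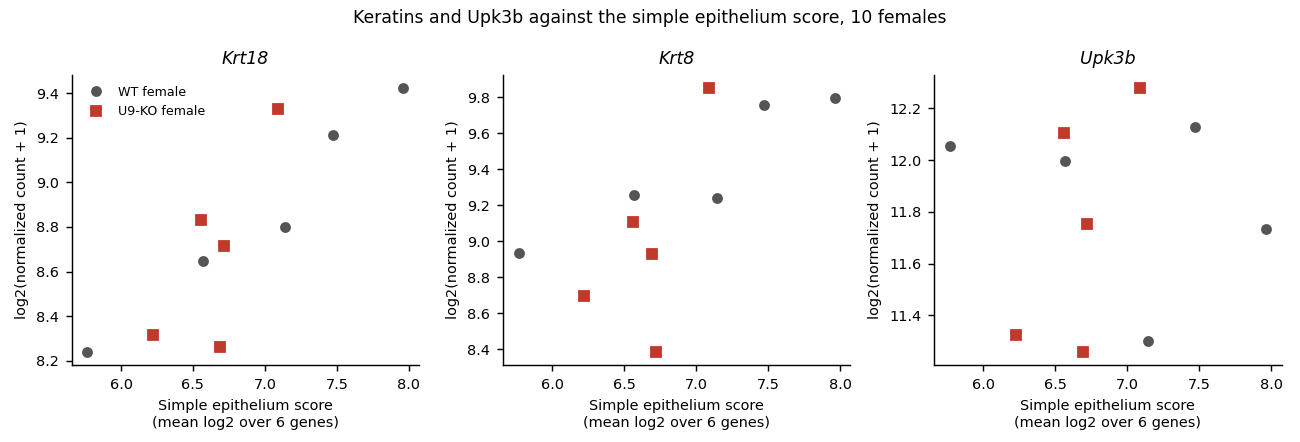
Log2(normalized count + 1) of *Krt18*, *Krt8* and *Upk3b* against the simple epithelium score in the 10 females, with WT mice as circles and U9-KO mice as squares. *Krt18* and *Krt8* rise with the score (r = 0.861 and 0.701), and *Upk3b* does not over all 10 mice (r = 0.03). Without the 2 mice farthest from the median score r is 0.764, 0.705 and 0.349.

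The ovary score, the mean log2 value of the 17 ovary genes, was 5.75, 7.40, 6.63, 10.1 and 7.47 in WT females and 9.85, 6.27, 6.82, 5.99 and 7.43 in U9-KO females, against 2.81 to 3.73 in males. WT female 4 and U9-KO female 1 were separated from the other 8 by a gap of 2.37, 54.9% of the whole range, so no correlation over all 10 mice is given for this score. These mice had the 2 lowest values of *Msln* (960 and 898, against 1210 to 1919 in the other 8), *Upk3b* (2523 and 2448, against 2562 to 4972), *Lrrn4* (564 and 715, against 828 to 1560) and *Gpm6a* (891 and 965, against 1100 to 1619). For the other 6 members at least 1 of the 8 lay between or below them. How many of all genes were likewise lowest in these 2 mice was not counted, so these ranks have no background share. *Wt1* in WT female 4 (2479) was above 7 of the other females.

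Fitted with genotype as a covariate, all 10 slopes on the ovary score were below 0, with a median of -0.13 log2 units per unit of score. The median over all genes with a mean of at least 10 was -0.001. Members vary together among mice, so the shared sign is not a count of independent genes. *Lrrn4* (-0.23, SE 0.06, limma adjusted p = 0.0427) and *Msln* (-0.21, SE 0.05, limma adjusted p = 0.0489) passed, 2 of 10 members, where 1.14% of all genes had a lower call and 3.76% a higher one. *Gpm6a* (-0.17, SE 0.04, limma adjusted p = 0.0563) and *Upk3b* (-0.19, SE 0.06, limma adjusted p = 0.0906) did not pass. *Wt1* and *Krt8* (both -0.02) and *Krt18* (-0.06) had slopes smaller than their SEs of 0.13, 0.09 and 0.09. With 1 mouse left out, these slopes reached up to 0.063, 0.0539 and 0.0211.

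Both calls were close to the threshold and each was lost when any of 7 of the 10 females was left out. Without WT female 4 and U9-KO female 1, *Lrrn4* had a slope of -0.18 (SE 0.15, limma adjusted p = 1) and *Msln* of -0.07 (SE 0.14), and no gene passed. Leaving out WT female 4 alone gave limma adjusted p of 0.396 and 0.353, and leaving out U9-KO female 1 alone gave 0.175 and 0.328. Within the 8 other females r with the ovary score was -0.38 for *Lrrn4* (exact permutation p = 0.356, rho -0.405), -0.29 for *Gpm6a* (exact p = 0.461, rho -0.429), -0.25 for *Upk3b* (exact p = 0.577, rho -0.405) and -0.14 for *Msln* (exact p = 0.718, rho -0.357). Without the 2 of these mice farthest from their median these became -0.20, 0.09, -0.09 and 0.21. Over the 10 members r ran from -0.378 to 0.233, and no relation was detectable among these 8 mice.

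**Figure D5:**
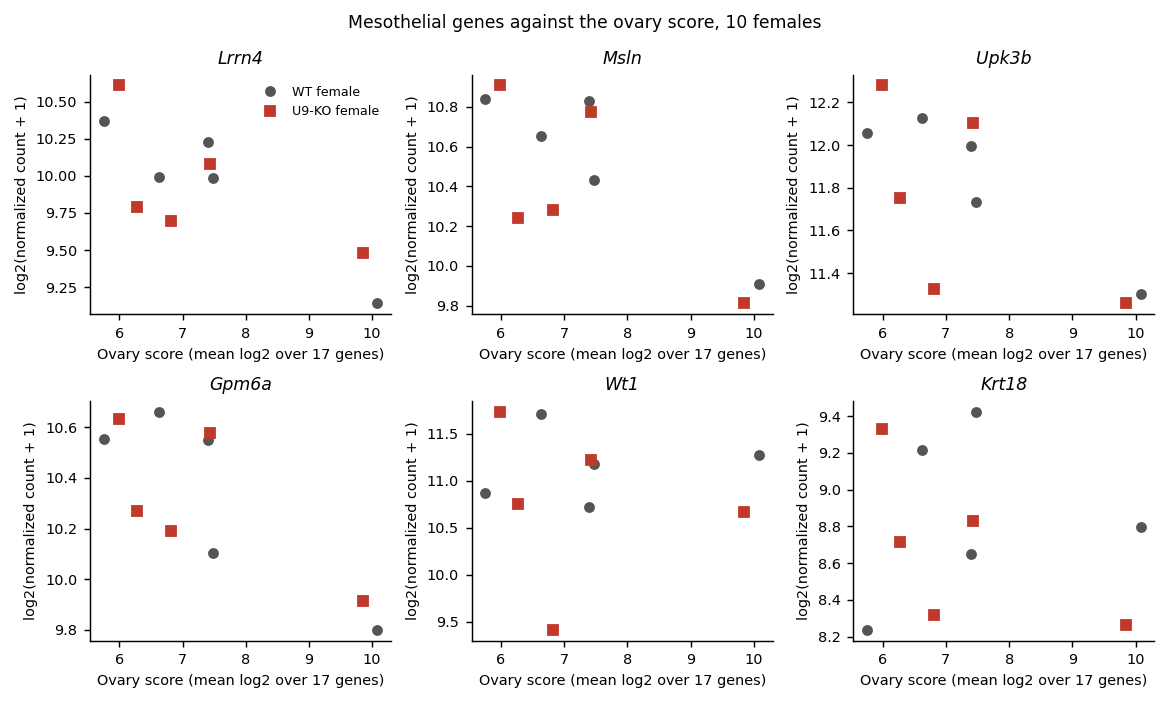
Log2(normalized count + 1) of 6 members against the ovary score in the 10 females, with WT mice as circles and U9-KO mice as squares. WT female 4 and U9-KO female 1, at scores of 10.1 and 9.85, are the 2 lowest mice for *Lrrn4*, *Msln*, *Upk3b* and *Gpm6a*, and not for *Wt1* or *Krt18*.

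The parts of the ovary score were also taken alone. Against the granulosa and oocyte genes alone, whose scores had no gap over 38.5% of their range, *Lrrn4* had r = -0.893 over 10 females (permutation p = 0.00033, adjusted 0.0198 over 60 relations, rho -0.818 with permutation p = 0.00553), and -0.698 without the 2 farthest mice. *Gpm6a* (-0.862), *Msln* (-0.830) and *Upk3b* (-0.811) were also negative, with adjusted permutation p of 0.0232, 0.0356 and 0.0342. Without WT female 4 and U9-KO female 1 their r was -0.568, -0.478 and -0.623, with exact permutation p of 0.142, 0.228 and 0.0963, adjusted over 50 relations 0.786, 0.827 and 0.688. Within the 8 females other than WT female 4 and U9-KO female 1 all 10 members were negative, from -0.698 (*Lrrn4*, exact p = 0.0541, adjusted 0.677) to -0.035, and none passed. Against the luteal and thecal genes alone the largest gap in scores was 31.8% of their range. Over 10 females r was -0.660 (*Gpm6a*), -0.646 (*Msln*), -0.640 (*Lrrn4*) and -0.563 (*Upk3b*), and none passed (adjusted permutation p 0.181 to 0.255). In the 8 females without WT female 4 and U9-KO female 1, 1 of 10 members was negative and none passed. The difference between the 2 parts was not tested.

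Other genes were fitted on the same score. Of the other mesothelial genes *Nkain4* (-0.22, limma adjusted p = 0.0356), *Cldn15* (-0.21, 0.0337) and *Muc16* (-0.18, 0.0422) had a lower call on the ovary score. As with the members, none of these calls was left without WT female 4 and U9-KO female 1, where 0 of 23864 genes passed. *Aldh1a2*, which makes retinoic acid, went the other way without passing (0.32, limma adjusted p = 0.112), with 3593 normalized counts in WT female 4 against 585 to 1308 in the other females. The slopes of all 8 adipocyte genes were below 0 with a median of -0.22, 1 of them called. Normalized counts are relative to the other RNA of a library, and the part of a changed share of ovary tissue in these slopes was not tested.

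Members varied together from mouse to mouse. Over the 45 pairs, r of the log2 values was 0.245 to 0.936 in females (median 0.71) and 0.408 to 0.991 in males (median 0.798), with none negative. Without the 2 mice farthest from the median of the first gene of a pair, the median was 0.717 in females with 1 pair negative, and 0.502 in males with 7 pairs negative, down to -0.425 (*Gpm6a* and *Krt19*). *Upk3b* and *Lrrn4* had r = 0.888 in females (permutation p = 0.00028, adjusted 0.00133, rho 0.867, 0.808 without the 2 mice farthest from the median of *Upk3b*). In males their r was 0.991 (exact permutation p = 0.00119, adjusted 0.00198, rho 0.893, 0.828 without the 2 farthest mice), the highest of the 45 pairs. In females other pairs were higher, such as *Upk1b* and *Krt19* at 0.936. *Krt8* and *Krt18* had r = 0.802 in females (permutation p = 0.00563, adjusted 0.00704, rho 0.745, 0.939 without the 2 farthest mice). In males their r was 0.954 (exact permutation p = 0.000794, adjusted 0.00159, rho 0.929, 0.886 without the 2 farthest mice). Permutation p was computed and adjusted over only 10 relations, picked from the 45 pairs of each sex and not named in advance. The size factors and the share of other tissue in a library are common to all members and enter each of these values.

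In females *Wt1*, *Krt8* and *Krt18* stood somewhat apart, a grouping chosen after seeing the values and so given with no test. Pairs among the 7 other members had a median r of 0.853, the 3 pairs among these genes 0.720, and the 21 pairs between the sets 0.415. Without the 2 farthest mice the medians were 0.800, 0.713 and 0.399. In males the pairs between the sets had a median of 0.762, which became 0.494 without the 2 farthest mice, close to the 0.487 of the pairs among the 7 other members.

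Genes in none of the lists used here that were most like the members were ranked by the lower of their correlations, in females and in males, with the mean of the z-scored members, among 16171 genes with a mean of at least 10 in each sex. The first was *Myrf*, a membrane-bound transcription factor, with r = 0.946 in females and 0.981 in males. *Crb2*, a cell polarity protein, had 0.935 and 0.910, and *Crym*, which binds thyroid hormone, had 0.922 and 0.903. They were followed by *Efemp1*, *AI661453*, *Gm10451*, *Cobl*, *Dhrs9*, *P4htm* and *Igfbp6*, the last with 0.951 and 0.852. Among the listed genes, *Rspo1* (0.917 and 0.922) lay between *Myrf* and *Crb2* by this measure and *Muc16* (0.894 and 0.944) between *Crym* and *Efemp1*. Other mesothelial genes followed the members less. The lowest by this measure were *Aldh1a2* (0.033 in females and 0.843 in males), *Tgm1* (0.471 and 0.263) and *Dmkn* (0.699 and 0.379), among those with a mean of at least 10. The points of each r share their libraries, so these values are a description over 10 and 7 mice.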

How the data were processed

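Whole pWAT RNA was sequenced from 17 mice (stranded, paired-end, 1 library per mouse). Reads were trimmed with trim_galore, aligned with STAR 2.7.3a and counted per gene with summarizeOverlaps (Union), and the submitters' processing notes name GRCm38 and DESeq2 1.28.1. Per gene, the deposited files hold a score, namely read counts scaled by the authors with 1 size factor per library and rounded, so no count model was used. The table of all libraries repeats the single files. The column numbers of 2 male libraries differ from the labels, and the labels were used. Fits used limma 3.58.1 (R 4.3.3; lmFit, eBayes with trend) on log2(normalized count + 1), keeping genes that summed to 10 or more in the mice fitted. They were tested on simulated data. Exact tests, and permutation tests with 100000 resamples, used scipy 1.17.1, numpy 2.4.6 and pandas 2.3.3 in Python 3.11.15, copies were searched with BLAST 2.17.0, and figures were drawn with matplotlib 3.10.9. The genes named were the 10 members, listed genes of neighbouring tissues (of most lists only examples), and the 10 unlisted genes most like the members. Members and lists were chosen with earlier results of these data known. Alternatives were another pseudocount, no or a stricter filter, leaving out each mouse, the replicate number as a block, a common scale, other covariates and parts of the ovary score.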

Additional observations from a re-analysis of the deposited data

How the results depend on the processing

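Pseudocount, filter, covariate, replicate block and leaving out single mice changed no call of a member between U9-KO and WT, where 0 passed in each setting run. Replicate numbers did not pair the mice, since the correlations of same-numbered mice were -0.445 to 0.110. With the replicate block, male log2 differences became 0.10 (*Upk1b*), 0.29 (*Krt8*) and 0.30 (*Krt18*), the interaction of *Gpm6a* became 0.0142, and calls on the ovary score were 133 in place of 1216, with 0 members. Members called on the ovary score were 1 with no filter, 1 with at least 10 in every mouse, 0 with the luteal and thecal genes, 4 with the granulosa and oocyte genes (805 genes called), and 0 (with 0 genes called) without WT female 4 and U9-KO female 1, a setting chosen after seeing the data. In that last setting the slopes of *Krt8* and *Krt18* were 0.10 and 0.15. With the luteal and thecal genes the slopes of *Wt1* and *Krt8* were 0.0334 and 0.0149, 1 member had a negative r within 8 mice, and r was 0.181 (*Msln*), 0.141 (*Upk3b*) and 0.0187 (*Gpm6a*). With no filter 1 gene was called for the interaction, and with no covariate 1 on the oviduct score. The cause of these changes was not tested.

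Leaving out single mice gave 0 to 71 genes called between male genotypes (71 without WT male 1), 59 to 1664 on the ovary score (59 without U9-KO female 1), 0 to 4 members on that score, 0 to 1 gene on the oviduct score, 0 to 7 on the simple epithelium score and 3 to 8 members with a negative r with the ovary score. Female log2 differences ran from -0.28 to 0.0193 (*Msln*), -0.23 to 0.0225 (*Upk3b*), -0.21 to 0.10 (*Lrrn4*), -0.0835 to 0.16 (*Bnc1*) and -0.15 to 0.0848 (*Gpm6a*). Male ones ran from -0.55 to 0.0539 (*Msln*), -0.32 to 0.27 (*Upk3b*), -0.32 to 0.10 (*Upk1b*), -0.13 to 0.21 (*Wt1*), -0.27 to 0.31 (*Bnc1*), -0.64 to 0.0237 (*Gpm6a*), -0.31 to 0.29 (*Krt8*), -0.37 to 0.30 (*Krt18*) and -0.11 to 0.47 (*Krt19*). The interaction of *Gpm6a* ran from -0.63 to 0.0394, the ovary slopes from -0.0738 to 0.063 (*Wt1*), -0.0855 to 0.0539 (*Krt8*) and -0.15 to 0.0211 (*Krt18*), and r of *Msln* with the ovary score from -0.377 to 0.0638. Between the sexes 5 to 7 members were called. With 3 WT males, a genotype difference within the intervals given is not excluded.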
